A study of Mus musculus with 10 samples.

Results

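The lecticans, their link proteins and the tenascins are the proteoglycans and glycoproteins that build the hyaluronan matrix of the brain. The 10 genes described here are the lecticans Bcan, Ncan, Vcan and Acan, the link proteins Hapln1, Hapln2, Hapln3 and Hapln4, and the tenascins Tnc and Tnr, taken by gene symbol from 23230 features measured by RNAseq. The set was chosen by its known role in the brain matrix and with the difference between tumour cells and astrocytes of this series already known, so the values of that difference are given as a description. Counts of genes past the threshold of the fit over all features stand beside the share of all features past it, and support nothing about the set. The 10 genes were matched in all 10 libraries.

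Lecticans are large core proteins that carry chondroitin sulphate chains. Their amino-terminal end binds hyaluronan, a link protein clamps that contact, and their carboxy-terminal end binds tenascins, so that the 3 classes form one network around cells. In the brain, versican and tenascin-C are known from the loose matrix of development and of glioma, whereas aggrecan, HAPLN1 and tenascin-R are known from the perineuronal nets of mature neurons.

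The study followed a mouse model of glioma in which astrocytes of the cerebral cortex, taken at postnatal day 5 from C57BL/6 mice without p16/p19 (Ink4a/Arf), were infected with a retrovirus for human EGFRvIII, a constitutively active EGF receptor. These cells, called AstroEGFR*, were sequenced as 3 independent batches. After transplantation into the brain of CD1 Nude mice they gave tumours, and cultured glioma propagating cells from these primary tumours, called PT, were sequenced as 4 libraries, of which PT1 and PT4 trace back to astrocyte batch 1, PT2 to the second batch and PT3 to the third. The 3 libraries called AstroEGFR* Zfp423 came from AstroEGFR* cells that also carried a viral vector for Zfp423, a zinc-finger transcription factor, and that were not transplanted. Both the p16/p19 loss and EGFRvIII were therefore shared by all 10 libraries, all cultures had been passaged fewer than 10 times, and no culture without EGFRvIII was measured here. Astrocytes were grown in medium with serum, while PT cells were grown without serum, with EGF and FGF2 on laminin, so the passage through a tumour and the change of medium cannot be told apart. Levels are given as FPKM, fragments scaled by transcript length and by library size, which allows genes to be compared per length, and differences are given on the scale of log2(FPKM + 1).

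Several libraries stood apart. Zfp423 was at 3.25 to 4.30 FPKM in AstroEGFR*, at 0.641 to 2.78 FPKM in PT, and at 15.7, 9.73 and 105 FPKM in AstroEGFR* Zfp423 1, 2 and 3, as the labels state. The 6 microglial markers summed to 843 and 471 FPKM in AstroEGFR* Zfp423 1 and 2, against 0.0692 to 5.09 FPKM in the other 8 libraries, and the 6 fibroblast and meningeal markers summed to 4522 and 6273 FPKM there, against 228 FPKM in AstroEGFR* Zfp423 3. In AstroEGFR*2 Zfp423 the astrocyte markers Gfap and Aqp4 were at 1.11 and 0.0266 FPKM, and Olig1 and Olig2 were listed at 0. Cspg4, on the same progenitor list as Olig1 and Olig2, went the other way. It was at 49.9 FPKM there, against 1.12 FPKM in AstroEGFR*2. The fibroblast and meningeal sum was also high in AstroEGFR*3, at 5138 FPKM, and the neuronal marker Rbfox3 and the myelin marker Mog stayed below 0.1 FPKM in all 10 libraries. PT1 and PT4 had summed oligodendrocyte progenitor markers of 1369 and 1768 FPKM, against 33.7 to 231 FPKM elsewhere. The share of small non-coding RNA in the summed FPKM ran from 0.209% in AstroEGFR*1 to 54.5% in AstroEGFR*3 Zfp423, and the low values of AstroEGFR*3 and PT3 were coarser, with a median of 0.139 and 0.144 FPKM over rarely listed features against 0.0186 to 0.0365 FPKM in the rest. The depth of the libraries is otherwise unknown, since no counts were used. The deviations of the libraries labelled AstroEGFR*2 Zfp423 and AstroEGFR*3 Zfp423 from their group mean correlated with those of their own batch at -0.11 and -0.26 over 12476 features, and with those of AstroEGFR*3 and AstroEGFR*2, each the other's batch, at 0.31 and 0.22. Each PT library correlated with its own batch at 0.35 to 0.50. Zfp423 itself was above its AstroEGFR* range in all 3 libraries and highest in the one labelled AstroEGFR*3 Zfp423, and the differences given below for batches 2 and 3 use the labels as they stand.

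Among the lecticans, brevican and neurocan, made by glia and neurons of the brain, had the largest differences between PT and AstroEGFR*. Bcan was at 3.04, 6.07 and 1.87 FPKM in AstroEGFR*1, 2 and 3, and at 72.3, 81.5, 74.0 and 211 FPKM in PT1, 2, 3 and 4. All PT libraries lay above all AstroEGFR* libraries, PT1 to PT3 were close to each other, and PT4 was the highest. The difference of the means was 4.51 (SE 0.47), with group means of 6.63 ± 0.74 (SD, n = 4) and 2.12 ± 0.66 (SD, n = 3). In order of level within a library, Bcan moved from between place 8678 and place 11030 of all features in AstroEGFR* to between place 198 and place 1310 in PT.

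Ncan was at 5.18, 19.4 and 1.87 FPKM in AstroEGFR*, and at 79.0, 34.8, 7.002 and 255 FPKM in PT. The groups overlapped, since Ncan in PT3 lay below Ncan in AstroEGFR*2, and the spread over the PT libraries was wider than that of Bcan (SD 2.10 against 0.74). The difference was 2.79 (SE 1.16). Relative to Bcan, Ncan was 1.71 and 3.20 times as high in AstroEGFR*1 and 2 and 1.00 times in AstroEGFR*3, and in PT the ratio was 1.09, 0.426, 0.0946 and 1.21, so that PT2 and PT3 carried mainly Bcan of this pair.

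Versican, the lectican found in many tissues besides the brain, had a smaller and narrower difference. Vcan was at 23.6, 10.3 and 21.6 FPKM in AstroEGFR* and at 76.1, 36.7, 52.5 and 62.0 FPKM in PT, without overlap, and the difference was 1.60 (SE 0.37). Aggrecan, the lectican of cartilage and of perineuronal nets, was at or below 0.322 FPKM everywhere and was listed at 0 in 2 libraries. The highest Acan value was that of PT4.

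**Figure D1:**
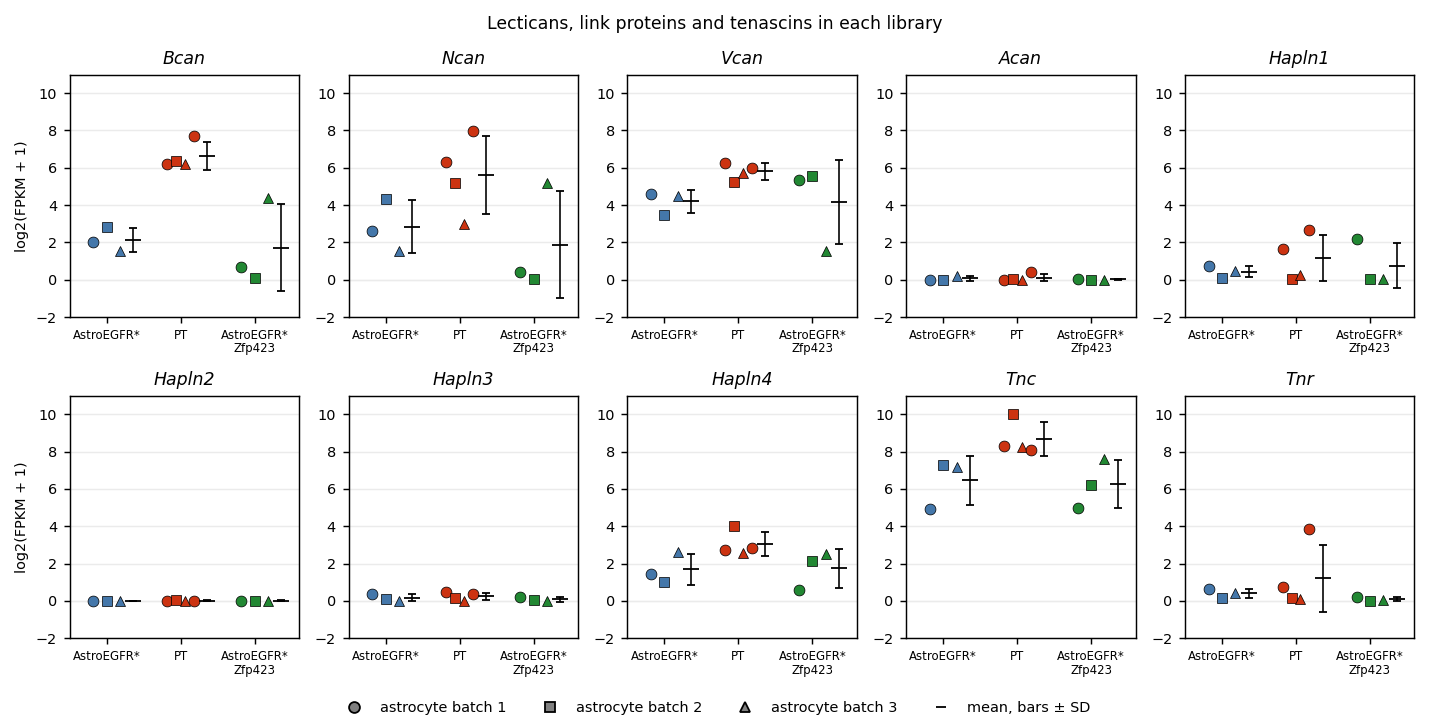
Level of each of the 10 genes, as log2(FPKM + 1), in the 3 AstroEGFR* libraries (blue), the 4 PT libraries (red) and the 3 AstroEGFR* Zfp423 libraries (green), with the astrocyte batch as the marker shape and the group mean with its SD beside the points. Bcan, Vcan and Tnc do not overlap between PT and AstroEGFR*, Acan, Hapln2 and Hapln3 lie near 0 throughout, and Bcan, Ncan and Vcan spread most in AstroEGFR* Zfp423.

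The makeup of the lecticans differed as well as their sum. The 4 lecticans summed to 25.6 to 35.8 FPKM in AstroEGFR*, and Vcan held 74.2% and 84.7% of that sum in AstroEGFR*1 and 3, while Ncan held 54.3% in AstroEGFR*2. In PT the sum was 227, 153, 134 and 528 FPKM. Bcan held 31.8%, 53.3%, 55.5% and 39.9% of it, above its 7.32% to 17.0% in AstroEGFR*. The share of Vcan in PT was 11.7% to 39.3%, which overlapped with AstroEGFR*2 at 28.7%. PT1 and PT4, the libraries of batch 1, had Ncan as the first lectican, and PT2 and PT3 had Bcan.

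**Figure D2:**
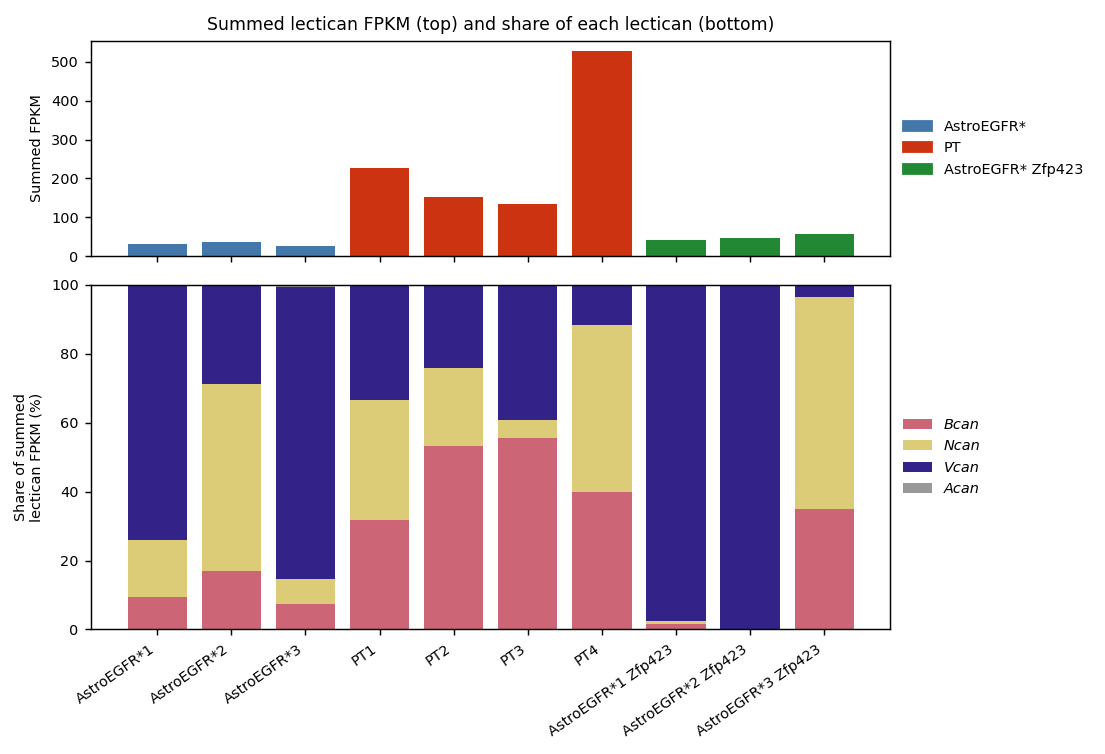
Summed FPKM of the 4 lecticans in each library (top, bars coloured by group) and the share of each lectican in that sum in percent (bottom). Vcan makes up 97.5% and 99.8% of the sum in AstroEGFR* Zfp423 1 and 2 and 3.43% in AstroEGFR* Zfp423 3, while Bcan makes up 31.8% to 55.5% in PT.

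Link proteins were low. Hapln4, a link protein known from the brain, was the first of the 4 in every library other than AstroEGFR*1 Zfp423. It was at 1.66, 1.05 and 5.04 FPKM in AstroEGFR* and at 5.59, 14.9, 5.02 and 6.22 FPKM in PT. The groups overlapped by the near-equal pair of AstroEGFR*3 and PT3, and the difference was 1.36 (SE 0.49). Hapln1, the link protein of cartilage and of perineuronal nets, was at 0.650, 0.0788 and 0.375 FPKM in AstroEGFR* and at 2.16, 0.0108, 0.191 and 5.25 FPKM in PT. It was above 1 FPKM only in PT1, PT4 and AstroEGFR*1 Zfp423, all of batch 1, and the difference between PT and AstroEGFR* was 0.71 (SE 0.68), which was 0.21 without PT4 and 1.09 without PT2. Hapln2, known from the nodes of Ranvier of myelinated axons, stayed at or below 0.0278 FPKM with 5 libraries listed at 0, and Hapln3 stayed at or below 0.374 FPKM with 3 libraries listed at 0.

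In the mouse genome each link protein gene lies beside a lectican gene, with 0 protein-coding genes between them in the RefSeq annotation. The pairs are Bcan and Hapln2 on chromosome 3, Ncan and Hapln4 on chromosome 8, Vcan and Hapln1 on chromosome 13, and Acan and Hapln3 on chromosome 7. Bcan, with the largest difference between PT and AstroEGFR*, thus lies beside Hapln2, whose difference was 0.01. For Ncan and Hapln4 the differences were 2.79 and 1.36, and for Vcan and Hapln1 they were 1.60 and 0.71.

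The promoters of Bcan, of its neighbour Hapln2 and of Ncan are shown because the first and last differed most while Hapln2 was near 0. Each run is the 250 bases before the start site in the RefSeq promoter table of GRCm38.p6, all on the minus strand, at chr3:88000357-88000606 for Bcan, chr3:88027512-88027761 for Hapln2 and chr8:70120845-70121094 for Ncan. Capitals mark the motifs that were searched on both strands.
Bcan: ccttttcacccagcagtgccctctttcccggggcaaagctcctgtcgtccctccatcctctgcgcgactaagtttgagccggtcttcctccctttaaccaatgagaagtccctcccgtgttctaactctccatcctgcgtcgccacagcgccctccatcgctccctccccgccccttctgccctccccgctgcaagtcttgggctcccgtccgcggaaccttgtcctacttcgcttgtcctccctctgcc
Hapln2: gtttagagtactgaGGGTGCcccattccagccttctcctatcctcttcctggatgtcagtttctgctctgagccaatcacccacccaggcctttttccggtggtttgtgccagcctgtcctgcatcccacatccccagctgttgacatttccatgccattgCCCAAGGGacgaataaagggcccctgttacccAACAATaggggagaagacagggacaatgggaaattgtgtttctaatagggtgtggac
Ncan: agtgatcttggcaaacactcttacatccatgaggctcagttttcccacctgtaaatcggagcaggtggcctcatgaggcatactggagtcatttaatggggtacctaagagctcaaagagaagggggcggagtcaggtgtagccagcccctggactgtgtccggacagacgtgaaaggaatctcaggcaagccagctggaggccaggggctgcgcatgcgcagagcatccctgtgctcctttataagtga
The motifs were AACAAT of SOX factors, CCCNNGGG of EBF factors and GCACCC, a half-site of the Zfp423 element. They were searched in windows of 300 bases, and 9 of the 10 genes had a window (Hapln4 had none). No match was found in the windows of Bcan, Ncan, Vcan, Hapln1 and Tnc. AACAAT was in 2 of the 9 (Hapln2 and Hapln3), against 10.7% of all 32851 windows. CCCNNGGG was in 3 of the 9 (Acan, Hapln2 and Hapln3), against 13.7% of all windows. The matches in Acan and in Hapln3 each came as a pair of overlapping positions. GCACCC was in 2 of the 9 (Hapln2 and Tnr), against 15.7%. In Hapln2 the matches began 236, 89 and 57 bases before the start site for GCACCC (on the opposite strand), CCCNNGGG and AACAAT, with no overlap between them.

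Tenascin-C, a large glycoprotein of developing and injured brain that binds lecticans and integrins, was the highest of the 10 genes in 9 of 10 libraries. Tnc was at 29.9, 153 and 142 FPKM in AstroEGFR* and at 315, 1046, 307 and 269 FPKM in PT. The groups did not overlap and PT2 stood far above the other PT libraries. The difference was 2.21 (SE 0.71), or 1.46 without AstroEGFR*1. Tnr, the tenascin of mature brain known from oligodendrocytes and perineuronal nets, was at 0.533, 0.107 and 0.350 FPKM in AstroEGFR* and at 0.676, 0.108, 0.0669 and 13.7 FPKM in PT, so that PT4 alone was above 1 FPKM. Its difference was 0.82 (SE 0.92), and without PT4 the difference of the means was -0.07.

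Of the 10 genes, 7 reached the minimum for testing, an average of 1 FPKM in the 7 libraries of PT and AstroEGFR*, Tnr through PT4 and Hapln1 through PT1 and PT4, and Acan, Hapln2 and Hapln3 did not. The fit across all 12261 features that passed called 1.24% of them at an adjusted p under 0.05 (limma), 0.318% higher and 0.922% lower in PT, and called 1 of the 7, Bcan. With the batch as a block, which follows the origin of each PT culture, the fit called 3.87% of the features and 3 of the 7, namely Bcan with a difference of 4.46, Tnc with 2.46 and Vcan with 1.50. The PT libraries lay above all AstroEGFR* libraries for 3 of the 7, beside 6.95% of all features tested. Since the set was chosen with this contrast known, nothing is read from these counts. Without AstroEGFR*1, or without both libraries of batch 3, 0 of the 7 were called, and 0.0573% and 0.0658% of all features were.

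Set against the AstroEGFR* library of its own batch, each PT library was higher for Bcan, Ncan, Vcan and Tnc. PT1 and PT4 were both set against AstroEGFR*1, so their differences share a reference library. For Bcan the differences were 4.18, 3.54, 4.71 and 5.71 in PT1 to PT4, that is 23.8, 13.4, 39.6 and 69.5 times the FPKM. For Vcan they lay between 1.24 and 1.74, the narrowest range of the 4. Ncan differed by 3.70 and 5.37 in the batch 1 tumours PT1 and PT4 and by 0.81 and 1.48 in PT2 and PT3. Tnc differed by 3.36, 2.77, 1.11 and 3.13. Hapln4 differed by 1.31, 2.96 and 1.44 in PT1, PT2 and PT4, and PT3 was level with its batch (5.02 against 5.04 FPKM).

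**Figure D3:**
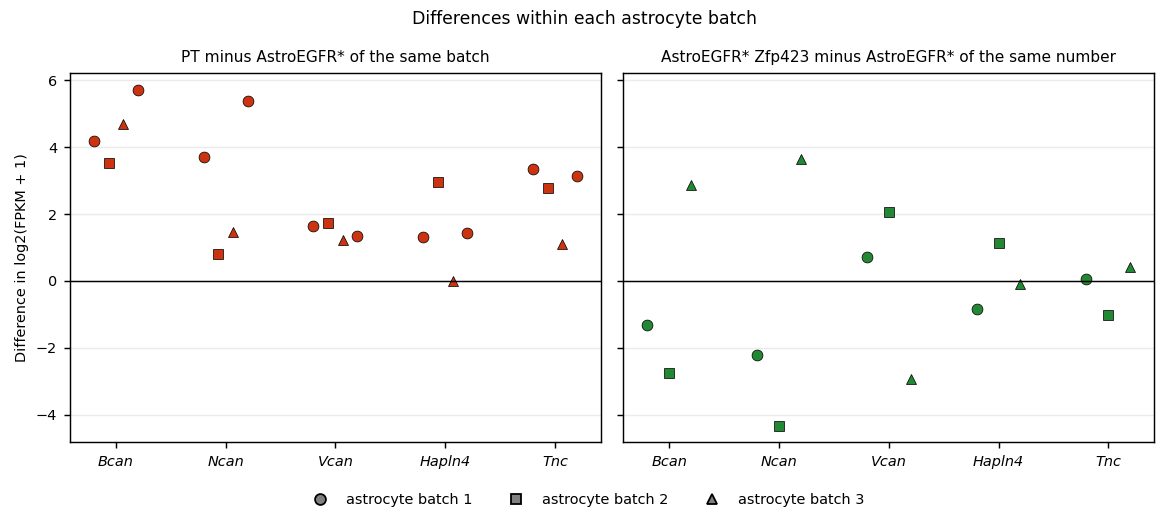
Differences in log2(FPKM + 1) between each PT library and the AstroEGFR* library of its batch (left, red) and between each AstroEGFR* Zfp423 library and the AstroEGFR* library of the same number (right, green), for the 5 genes tested in both comparisons, with the batch as the marker shape. All PT points of Bcan, Ncan, Vcan and Tnc lie above 0, while in the right panel Bcan and Ncan lie below 0 in batches 1 and 2 and above 0 in batch 3, and Vcan the other way round.

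PT1 and PT4, the libraries with the highest Ncan and Hapln1 of the PT group, also had the highest sums of oligodendrocyte progenitor markers. Sox10, which defines the oligodendrocyte lineage, was at 8.18 FPKM in PT1, 117 FPKM in PT4 and at or below 0.104 FPKM in the other libraries, and Olig1 was at 1000.3 and 1089 FPKM in PT1 and PT4 against 69.3 and 89.8 FPKM in PT2 and PT3. Pdgfra was at 41.9 FPKM in PT4 and at 1.25 FPKM in PT1, below its 1.48 to 5.67 FPKM in AstroEGFR*. Tnr had its single high value in PT4 and was at 0.676 FPKM in PT1, near its 0.533 FPKM in AstroEGFR*1. Hapln1 was also high in AstroEGFR*1 Zfp423, at 3.52 FPKM, where the progenitor sum was the lowest of the 10 libraries (33.7 FPKM). Of the 7 progenitor markers, 6 were higher in the mean of PT and 0 were called, and without PT4 4 of the 7 were higher. In bulk RNA, more cells of a type and more RNA per cell cannot be told apart. Bcan was also high in PT2 and PT3, where the progenitor sum was 151 and 132 FPKM, within the range of AstroEGFR* (69.6 to 231 FPKM). The fibroblast and meningeal sum ran the other way, at 1.08 to 372 FPKM in PT against 312 to 5138 FPKM in AstroEGFR*, with 1 of its 6 markers called lower. The part of these markers in the differences was not tested.

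**Figure D4:**
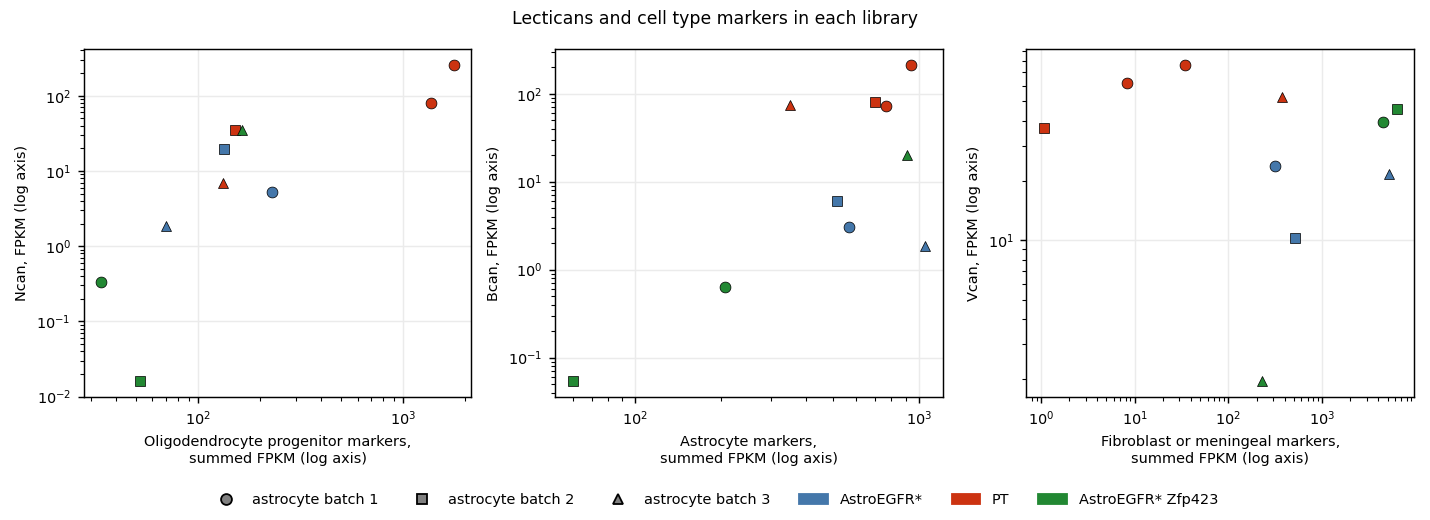
FPKM of Ncan against the summed FPKM of 7 oligodendrocyte progenitor markers (left), of Bcan against 9 astrocyte markers (middle) and of Vcan against 6 fibroblast and meningeal markers (right) in each of the 10 libraries, on log axes, coloured by group and shaped by batch. PT1 and PT4 lie at the upper right of the left panel, the PT libraries lie above the AstroEGFR* libraries in the middle panel over overlapping marker sums, and AstroEGFR*3 Zfp423 has the lowest Vcan in the right panel.

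AstroEGFR* Zfp423 was compared with AstroEGFR* by batch. Of the 10 genes, 5 passed the filter over the 6 libraries, and none was called in the fit with the batch as a block, in which limma called 0% of 12366 features in either direction, 0% higher and 0% lower. At an unadjusted p under 0.05, 7.38% of all features passed and 0 of the 5. The differences were -0.39 (SE 1.2) for Bcan, -0.96 (SE 1.67) for Ncan, -0.05 (SE 1.05) for Vcan, -0.19 (SE 0.37) for Tnc and 0.06 (SE 0.52) for Hapln4, with adjusted p of 0.886 to 0.991. The standard errors of the 3 lecticans were above 1, and their libraries moved in opposite directions.

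Bcan was at 0.629, 0.0541 and 20.0 FPKM in AstroEGFR* Zfp423 1, 2 and 3. The first and second of these lay below all AstroEGFR* libraries and the last above all of them. Ncan followed the same order, at 0.332, 0.0160 and 35.1 FPKM. Vcan did the opposite, at 39.4 and 46.0 FPKM in the first and second and 1.96 FPKM in the last, again outside the range of AstroEGFR* in every library, so the placing of these 3 genes does not rest on the pairing of the libraries. Within the labelled batches the differences were -1.31, -2.75 and 2.87 for Bcan, -2.21, -4.33 and 3.65 for Ncan and 0.72, 2.06 and -2.94 for Vcan. The sign was the same in all 3 batches for 0 of the 5 genes, beside 31.6% of all features, and with 3 pairs the smallest p that an exact sign-flip test allows is 0.25 (two-sided). Without AstroEGFR*2 Zfp423 the differences of Bcan and Ncan became 0.78 and 0.72, without AstroEGFR*3 Zfp423 they became -2.03 and -3.27 and that of Vcan became 1.39, and none of these was called. Since the groups compared share their AstroEGFR* libraries with the comparison of PT, the values of both are given only side by side.

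The makeup of the lecticans differed more than their sum. The sum was 40.4, 46.1 and 57.1 FPKM in AstroEGFR* Zfp423, above the 25.6 to 35.8 FPKM of AstroEGFR*. Vcan held 97.5%, 99.8% and 3.43% of it, while Ncan held 0.822%, 0.0348% and 61.5% and Bcan 1.56%, 0.117% and 35.1%. The libraries of low Bcan and Ncan were those with microglial markers, such as C1qa at 433 and 290 FPKM and Csf1r at 202 and 108 FPKM against 0 and 0.0686 FPKM in AstroEGFR* Zfp423 3. Their astrocyte sums were 207 and 60.0 FPKM against 912 FPKM, and their progenitor sums 33.7 and 52.0 FPKM against 163 FPKM. Within the progenitor list Cspg4 and Pdgfra went the other way. Cspg4 was at 3.67 and 49.9 FPKM against 0.0545 FPKM, and Pdgfra at 10.0 and 2.05 FPKM against 0.736 FPKM. Most of the progenitor sum of AstroEGFR*2 Zfp423 was Cspg4. Col1a1 was at 946 and 1946 FPKM against 3.83 FPKM, and Col1a2 at 1557.5 and 2641 FPKM against 216 FPKM. The part of these markers in the lectican values was not tested. AstroEGFR* Zfp423 3 also had the highest Zfp423.

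Tnc was at 30.9, 74.4 and 191 FPKM in AstroEGFR* Zfp423, within or just above the range of AstroEGFR*, and Hapln4 was at 0.482, 3.46 and 4.70 FPKM. Hapln1 was at 3.52 FPKM in AstroEGFR*1 Zfp423 and at or below 0.0421 FPKM in the others. Tnr was at or below 0.166 FPKM and Acan at or below 0.0308 FPKM in all 3, and both were under the filter, as were Hapln1, Hapln2 and Hapln3.

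A list of 77 other genes of the brain matrix was drawn up by function, also with earlier results of these data known, so its calls are not independent evidence. Of these, 75 were found and 61 passed the filter for PT and AstroEGFR*, and limma called 2 higher and 0 lower, beside 0.318% and 0.922% of all features, with a median difference of 0.07 over the 61 beside 0.03 over all features. Nrcam, a neural cell adhesion molecule of the L1 family, was at 0.451, 0.471 and 2.16 FPKM in AstroEGFR* and at 21.9, 59.8, 20.5 and 20.8 FPKM in PT, and rose by 3.91 (SE 0.47, adjusted p = 0.0134). Cspg5, the brain chondroitin sulphate proteoglycan neuroglycan C, was at 4.55, 4.17 and 1.78 FPKM and at 47.5, 49.9, 23.4 and 160 FPKM, and rose by 3.70 (SE 0.61, adjusted p = 0.036). In neither gene did PT and AstroEGFR* overlap. In AstroEGFR* Zfp423 1, 2 and 3 Nrcam was at 0.194, 0.378 and 36.4 FPKM, the last above PT1, PT3 and PT4. Cspg5 was at 2.42, 0.111 and 11.8 FPKM in the same libraries. Of 17 settings run, Nrcam was called in 14 and Cspg5 in 7, and Cspg5 was lost without the filter, with all 10 libraries in 1 fit, with PT1 and PT4 averaged, without batch 2 or batch 3, and without AstroEGFR*1, AstroEGFR*2, AstroEGFR*3, PT1 or PT2.

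With the batch as a block 6 of the 61 were called, beside 3.87% of all features, up from 1.24%. Besides Nrcam and Cspg5 these were Chst7, a chondroitin sulphotransferase, which rose by 1.89, and Chst12, another such enzyme, Fn1, the fibronectin gene, and Timp3, an inhibitor of lectican-cleaving proteases, whose differences were -1.60, -2.25 and -2.99. Without AstroEGFR*1, or without batch 3, 0 were called, beside 0.0573% and 0.0658% of all features. By class, 8 of 17 ligands and receptors, 2 of 5 genes of hyaluronan synthesis and breakdown, 2 of 5 hyaluronan and chondroitin sulphate receptors, 4 of 6 other chondroitin sulphate proteoglycans, 12 of 21 genes of chain synthesis and 3 of 7 proteases and inhibitors had a positive difference. Over the whole list 31 of the 61 had one, beside 6389 of all 12261 features tested.

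Ptprz1, a receptor phosphatase and proteoglycan that binds tenascins, was at 10.5, 14.4 and 2.93 FPKM in AstroEGFR* and at 103, 39.9, 12.9 and 180 FPKM in PT. Its order over the PT libraries was that of Ncan, the groups overlapped, and the difference of 2.69 (SE 0.89) did not pass the test (adjusted p = 0.243). In AstroEGFR* Zfp423 it was at 2.32, 0.156 and 19.1 FPKM, again low in the first and second and high in the last. Cd44, the hyaluronan receptor, was at 77.2 to 136 FPKM in AstroEGFR* and 34.2 to 114 FPKM in PT, with a difference of -0.69 (SE 0.43, adjusted p = 0.547), and Has2, a hyaluronan synthase, differed by 0.16 (SE 0.58, adjusted p = 0.943). The tenascins outside the set were under the filter for PT and AstroEGFR* and were looked at after their values were seen. Tnn, tenascin-W, was at 4.32, 0.358 and 1.87 FPKM in AstroEGFR* and at or below 0.0438 FPKM in PT, and Tnxb was at or below 0.247 FPKM in all libraries. With Zfp423, 0 of 62 genes of the list were called, beside 0% of all features.

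**Figure D5:**
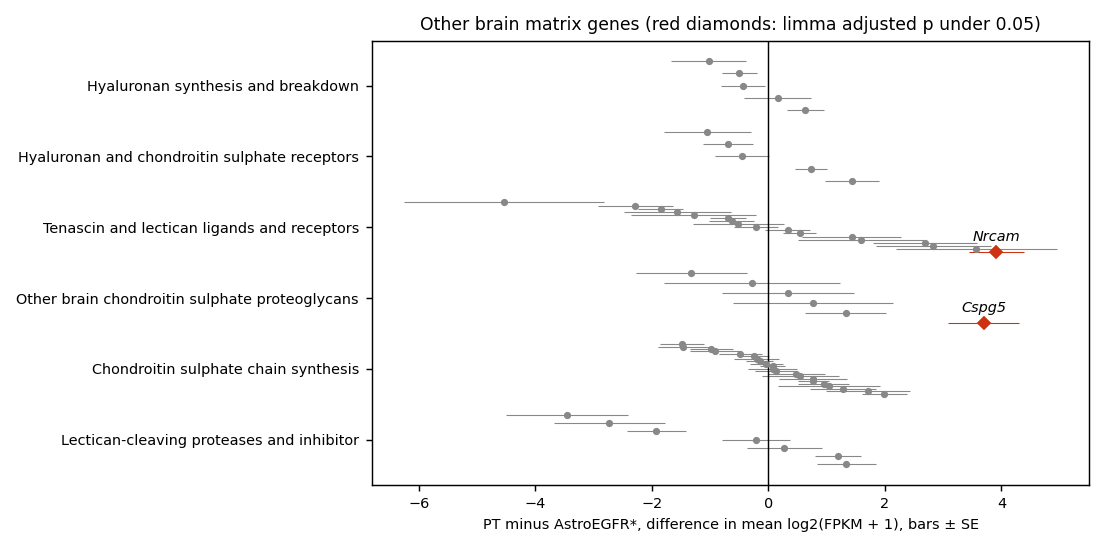
Difference between PT and AstroEGFR* in mean log2(FPKM + 1), with its SE, for the 61 other brain matrix genes tested, grouped by class. The 2 genes with a limma adjusted p under 0.05, Nrcam and Cspg5, are red diamonds to the right of 3 on the axis, and the other genes lie on both sides of 0.

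Over the 10 libraries the features most like Bcan, by Pearson correlation of log2(FPKM + 1) among 12475 features, were Btbd17 (0.986), Spsb4 (0.985), Prkacb (0.975), Cspg5 (0.974) and Trim9 (0.973). Trim9, for example, was at 96.6 to 246 FPKM in PT, at 4.84 to 14.9 FPKM in AstroEGFR*, and at 1.43, 0.0125 and 65.8 FPKM in AstroEGFR* Zfp423. Of the set, Ncan followed at 0.882 (place 100), Tnc at 0.798, Hapln4 at 0.671, Tnr at 0.514, Hapln1 at 0.233 and Vcan at 0.216. The libraries share group, batch and marker levels, so these correlations describe the 10 libraries and carry no test.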

How the data were processed

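Expression was measured by RNAseq in 3 AstroEGFR*, 4 PT and 3 AstroEGFR* Zfp423 cultures. The deposited values are FPKM, made by the authors for 23230 features, and the submitters' notes name TopHat 1.3, Cuffnorm and mm9. The labels name a TruSeq kit and the study's methods name RiboZero and stranded kits. No read counts were used here, and depth is known only from the step of low values. The members and gene lists were chosen with earlier results of these data known.

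Features that averaged 1 FPKM or more in the libraries of a comparison were fitted, as log2(FPKM + 1), with limma 3.58.1 in R 4.3.3. Variances were moderated along a mean trend, and the Benjamini-Hochberg adjustment ran over every feature fitted (threshold 0.05). The fit was also run on simulated data with large changes and the same noise in every feature. That run checks the code, and not how the fit performs at the spread of these libraries. PT was compared with AstroEGFR* without the batch, with the batch as an alternative, and AstroEGFR* Zfp423 with the batch as a block, named by the titles. The batch of each PT library comes from the study, and the deviations of PT libraries correlated with their own batch at 0.35, 0.43, 0.50 and 0.42. In the Zfp423 comparison they correlated at 0.24, -0.11 and -0.26. Genes named were the 10 members, listed genes called in a comparison, with or without the block (at most the 6 largest in each direction), Ptprz1, Cd44, Has2 and the 5 features most like Bcan. Tnn, Tnxb, Itgb3 and Fbln2 were named after their values were seen. Alternatives were the pseudocount (0.1), the filter, median-ratio scaling, the trend, a fit of all 10 libraries, the block, PT1 and PT4 averaged, and leaving out each library or batch. The deposited values had median-ratio factors of 0.995 to 1.03, so median-ratio scaling could change little. Promoters came from RefSeq (GRCm38.p6), and neighbours from its gene table. Coordinates of the mm9 build were not used.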

Additional observations from a re-analysis of the deposited data

Results flagged for a closer look

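In the PT libraries, 3 of the 10 genes had 1 library far from the others by Dixon's test, which flags about 1 in 20 groups by chance. Bcan reached 7.73 on the log2(FPKM + 1) scale in PT4, with a gap of 0.889 of the range, Acan reached 0.40 in PT4, with a gap of 0.965, and Tnc reached 10.03 in PT2, with a gap of 0.882. Acan was below 1 FPKM there as everywhere.

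The lecticans moved in opposite directions in different batches of AstroEGFR* Zfp423, a difference that was not tested, since each batch held 1 library of each kind. The differences in batches 1, 2 and 3 were -1.31, -2.75 and 2.87 for Bcan, -2.21, -4.33 and 3.65 for Ncan, and 0.72, 2.06 and -2.94 for Vcan, each as log2(FPKM + 1).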

How the results depend on the processing

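Of the 7 genes of the set tested between PT and AstroEGFR*, 1 was called (1.24% of all features were), and the count was 3 with the replicate block (3.87%), 0 with all 10 libraries in 1 fit (0.669%), 0 without batch 3 (0.0658%), and 0 to 1 when leaving out each library (0 without AstroEGFR*1, 0.0573%, and 1 of 5 tested without PT4). The count of other matrix genes called was 2, and it was 6 with the replicate block, 3 without the trend (1.38% of all features), 1 without the filter (0.624%), 1 with all 10 libraries in 1 fit, 1 with PT1 and PT4 averaged (0.497%), 1 without batch 2 (0.52%), 0 without batch 3, and 0 to 3 when leaving out each library (0 without AstroEGFR*1 and 3 without PT3, 0.846%). The counts of 1 and 0 stood beside fewer calls over all features than the 1.24% as designed. Itgb3 was called, lower, only without the trend, and Fbln2, lower, only without PT3. The differences stayed positive wherever the genes passed the filter, with ranges of 4.15 to 4.95 for Bcan, 1.99 to 3.70 for Ncan, 1.25 to 1.81 for Vcan, 1.46 to 2.70 for Tnc and 0.72 to 1.96 for Hapln4. Tnr and Hapln1 did not pass without PT4, nor Hapln1 with PT1 and PT4 averaged, and the difference of their means without PT4 and without the filter, chosen after seeing the data, was -0.070 and 0.21. With AstroEGFR* Zfp423, no gene of the set was called under any alternative, beside 0.414% of all features without batch 2, 0.381% without AstroEGFR*2, 0.487% without AstroEGFR*2 Zfp423, 0.0162% without the replicate block and 0% otherwise. Over these alternatives 18 differences changed sign against 52 that did not. Both counts repeat estimates, since with the block, leaving out either library of a batch gives the same difference as leaving out the batch. Hapln4 became -0.021 with a pseudocount of 0.1. When leaving out each library, Bcan ran from -2.03 to 0.78, Ncan from -3.27 to 0.72, Vcan from -1.11 to 1.39, Hapln4 from -0.47 to 0.52 and Tnc from -0.49 to 0.24. Without batch 2, or either of its libraries, Bcan became 0.78, Ncan 0.72, Hapln4 -0.47 and Tnc 0.24. Without batch 3, or either of its libraries, Vcan became 1.39, and without either library of batch 1 Bcan became 0.06. Without the replicate block the difference of Bcan stayed at -0.39. The cause was not tested. The groups held 3 or 4 libraries and no counts were used, which limits the precision.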
